A study of Arabidopsis thaliana with 12 samples.

Results

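Cytosolic ribosomal proteins are the protein components of the ribosomes that translate nuclear-encoded messenger RNA in plant cells. The genes described here are 49 of them, taken as the rows of the deposited count table whose locus identifier stands in a given list, with 32 genes of the large subunit and 17 of the small subunit. The table holds 33330 genes, and another 177 loci annotated as cytosolic ribosomal proteins were used for comparison. Seedlings of Arabidopsis thaliana, 6 days old, were either wild type (WT) or labelled hd2b hd2c, a name that stands for lesions in HD2B and HD2C, and their RNA was sequenced. All plants grew on agar with sucrose at 22 °C with 16 h of light and 8 h of dark, and seedlings were sampled at 0 h (normal) or after 3 h at 44 °C (heat). No library was labelled as 3 h at 22 °C. Differences called heat below therefore cannot be told apart from 3 h of elapsed time or from time of day. This gave 4 groups of 3 libraries, namely WT normal, WT heat, hd2b hd2c normal and hd2b hd2c heat. Neither the alleles nor the origin of replicates in separate cultures is stated in the labels, and a p-value here covers only the spread among libraries of a group.

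The large subunit of the ribosome joins amino acids, and the small subunit reads the messenger RNA. In Arabidopsis each ribosomal protein is encoded by a small family of paralogues, often several of them expressed in the same organ, and loss of single paralogues is known for pointed leaves, altered leaf polarity or arrested embryos. Ribosomal protein genes as a class are known for high, coordinated expression in growing tissue, and their promoters often hold the telo-box (AAACCCTAA) and the site II element (TGGGCC or TGGGCT). HD2B and HD2C are plant-specific histone deacetylases that are enriched in the nucleolus, where ribosomes are assembled.

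The sequences upstream of 6 genes are shown. P40 had the largest rise, RPL3B, a minor gene of its family, differed by genotype, and RP1 is the main gene of that family. AT1G18540 and AT2G37190 fell with heat, and AT5G60670 is a paralogue of the latter. Each stretch ends at the base before the annotated gene start and holds at most 250 bases, cut short where another annotated gene begins. Sequence and coordinates are from RefSeq's TAIR10.1 assembly and annotation, read 5′ to 3′ on the gene's strand, and capitals mark telo-boxes and site II elements on either strand. The stretches lie at chr1:27244932-27245081 (- strand) for P40, chr1:16266303-16266552 (+ strand) for RP1, chr1:22723153-22723367 (- strand) for RPL3B, chr1:6378581-6378830 (- strand) for AT1G18540, chr2:15620157-15620256 (- strand) for AT2G37190 and chr5:24381600-24381849 (- strand) for AT5G60670.
P40: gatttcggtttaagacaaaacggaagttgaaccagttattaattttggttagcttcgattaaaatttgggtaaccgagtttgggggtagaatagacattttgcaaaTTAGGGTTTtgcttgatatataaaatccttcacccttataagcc
RP1: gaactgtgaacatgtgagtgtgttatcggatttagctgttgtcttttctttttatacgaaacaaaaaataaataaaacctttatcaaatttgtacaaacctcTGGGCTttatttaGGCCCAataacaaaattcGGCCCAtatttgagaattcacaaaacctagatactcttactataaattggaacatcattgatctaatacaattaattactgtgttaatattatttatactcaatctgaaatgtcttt
RPL3B: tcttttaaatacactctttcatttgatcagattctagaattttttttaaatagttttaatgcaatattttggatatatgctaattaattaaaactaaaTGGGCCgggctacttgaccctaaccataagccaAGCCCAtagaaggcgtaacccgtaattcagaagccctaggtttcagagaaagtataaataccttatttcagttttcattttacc
AT1G18540: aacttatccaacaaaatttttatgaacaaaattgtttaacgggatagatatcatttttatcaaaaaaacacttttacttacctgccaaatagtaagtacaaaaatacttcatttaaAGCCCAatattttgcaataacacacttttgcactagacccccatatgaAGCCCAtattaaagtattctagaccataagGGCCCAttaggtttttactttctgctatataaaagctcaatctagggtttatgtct
AT2G37190: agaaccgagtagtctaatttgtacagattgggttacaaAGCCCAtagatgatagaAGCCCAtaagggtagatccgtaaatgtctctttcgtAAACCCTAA
AT5G60670: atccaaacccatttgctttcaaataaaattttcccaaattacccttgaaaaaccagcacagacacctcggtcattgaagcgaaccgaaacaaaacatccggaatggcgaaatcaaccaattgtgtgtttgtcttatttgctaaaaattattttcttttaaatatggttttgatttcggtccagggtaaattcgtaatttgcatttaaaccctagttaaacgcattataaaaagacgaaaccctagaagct
The stretch of P40 held 1 telo-box, that of RP1 held 3 site II elements and that of RPL3B held 2. Both genes that fell carried site II elements, 3 in AT1G18540 and 2 in AT2G37190, and the latter also had 1 telo-box that ends at the base before the gene start. AT5G60670 held none of these letters in the stretch shown.

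In windows of 300 bases, from 250 before the annotated start to 50 after it, 39 of the 49 members (79.6%) held a site II element on either strand, against 21.7% of all 27443 protein-coding promoters. The telo-box was in 13 members (26.5%) and in 3.6% of all promoters, and 10 members held both. In the other cytosolic ribosomal protein genes these shares were 73.9% and 27.8%, and in 31 nuclear genes for plastid ribosomal proteins 51.6% and 3.23%. The members that rose with heat in WT carried site II in 26 of 33 cases and the telo-box in 9, and the remaining members in 13 and 4 of 16. The motifs were therefore about as frequent in members that rose as in members that did not, and a match is a description of letters, not of a bound site.

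Libraries held 7737285 to 24030931 gene counts, and all 49 members passed the filter on low counts. The HD2B transcript was lower under the hd2b hd2c label (log2 fold change −0.75 at normal temperature and −2.15 after heat), whereas HD2C was higher (1.40 and 1.12), so the HD2C transcript goes against the label and directions by genotype rest on the label. HSP101, a heat-induced chaperone gene, was at 7.36 to 16.3 CPM (counts scaled to a common library size) in the normal libraries and at 8297 to 10357 in the heat libraries. Replicate 2 of hd2b hd2c heat stood apart: it had the fewest counts and the lowest scaling factor, and its 10 leading genes held 34.1% of counts, where the other libraries had 7.81% to 24.8%. Scaling factors from trimmed means of M values (TMM) were 1.62 to 1.86 in the normal and 0.424 to 0.744 in the heat libraries. Heat results are therefore given under TMM factors and under library totals, and with the median of all genes, which was −0.14 under TMM factors and −1.67 under library totals for heat in WT. Whole seedlings were used, and a smaller share of cells of a type and less RNA per cell cannot be told apart.

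Before heat the members spanned a wide range of levels. Per kilobase of exon, WT normal means ran from 6.82 ± 1.02 CPM for RPSAb, a minor paralogue of the small subunit protein RPSa, to 422 ± 23.7 CPM for SAC52, a paralogue of RPL10, which joins the large subunit late in its assembly (SD, n = 3). SAC52 was followed by EMB2296 (RPL8, needed for embryo development) at 346 ± 32.4, RPS6, the small subunit target of the TOR pathway kinase S6K, at 322 ± 17.9, RPL18 at 316 ± 20.03 and P40 (RPSa) at 316 ± 25.7 CPM per kilobase. From EMB2296 to P40 each mean lay above the next by less than its own SD, although EMB2296 lay above RPS6 by more than the SD of RPS6. Below 24 CPM per kilobase were 7 members, among them RPL3B (18.3 ± 0.604), RPL16A (RPL11, 18.6 ± 0.708) and RPL10B (15.3 ± 2.00), each of which has a more abundant paralogue. The median level per kilobase was 126 CPM in the 32 large subunit genes and 169 CPM in the 17 small subunit genes.

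With heat in WT, 33 of the 49 members rose and 2 fell relative to the TMM-scaled libraries, whereas with library totals 31 of those 33 turned negative and 43 of the 49 were called lower. Of all 20232 genes tested, 31% were called higher and 34.8% lower under TMM factors, and 5.1% and 79.1% under library totals (quasi-likelihood test of edgeR, Benjamini-Hochberg adjusted p under 0.05). The median log2 fold change of the members was 0.66 under TMM factors and −0.88 under library totals, which lay 0.80 and 0.79 above the median of all genes. Of the 49 members, 44 lay above the median of all genes under TMM factors and 43 under library totals. The 33 called higher were above it under both scalings, which for TMM factors follows from the call itself. Library totals moved all genes by nearly the same amount, so their order was bound to be nearly kept. The position under library totals is therefore no second test, while the sign depended on the scaling. In 35 members every WT heat library lay above every WT normal library and in 3 below, against 33.1% and 37.7% of all genes. Log2 fold changes below use TMM factors unless library totals are named.

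**Figure D1:**
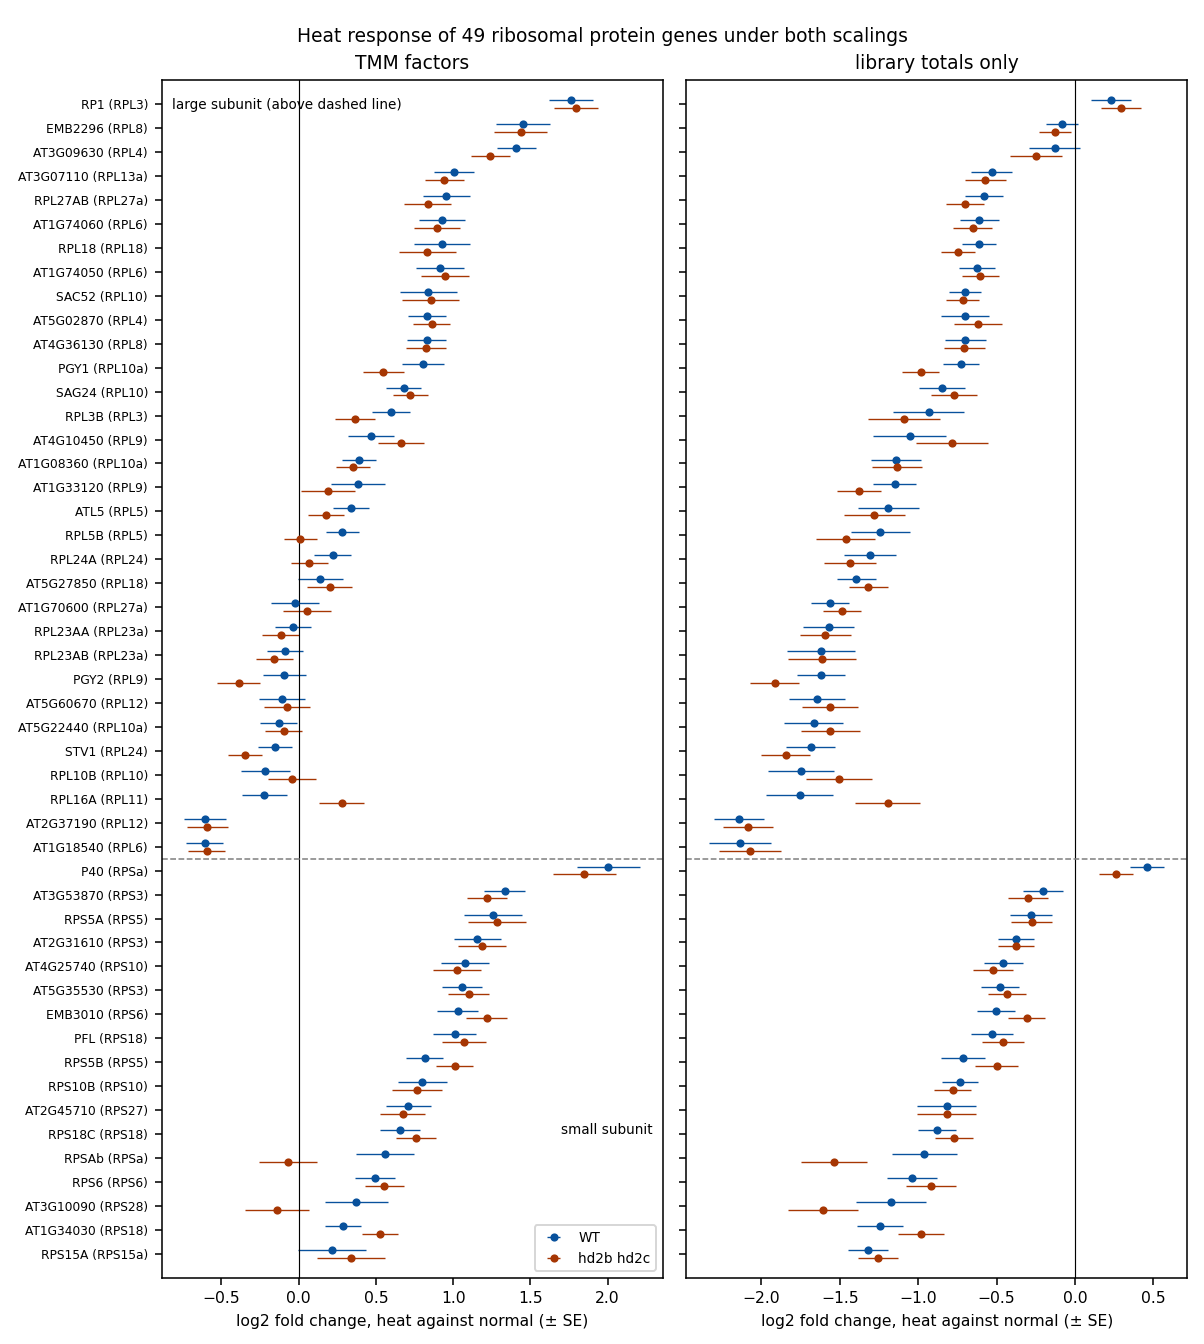
Log2 fold change of each of the 49 members with heat against normal temperature, in WT (blue) and in the libraries labelled hd2b hd2c (brown), with TMM factors (left) and with library totals (right). Points are fitted values from 3 libraries a group, bars are ± SE, and large subunit genes are above the dashed line. With TMM factors all 17 small subunit genes lay above 0 in WT, and with library totals P40 and RP1 alone lay above 0 in both genotypes.

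P40 encodes the small subunit protein RPSa, which acts late in maturation of that subunit, and had the largest rise. It was at 440, 373 and 409 CPM in the WT normal libraries and at 1405, 1546 and 1952 CPM in the WT heat libraries. Every heat library lay above every normal library, by 2.00 on the log2 scale (SE 0.20, adjusted p 1.22e-08 in edgeR's quasi-likelihood test after Benjamini-Hochberg adjustment), and the rise was called with library totals as well (0.46, adjusted p 0.000722). In the libraries labelled hd2b hd2c it went from 580, 579 and 488 CPM to 1588, 2877 and 1472 CPM, a log2 fold change of 1.85, or 1.47 without hd2b hd2c heat replicate 2, which holds the highest value. Its paralogue RPSAb made up 2.42% of RPSa counts in WT normal and 0.92% in WT heat.

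RPS3 lies where messenger RNA enters the small subunit, and its 3 paralogues rose together. AT3G53870 was at 203, 184 and 208 CPM in WT normal and 443, 492 and 565 CPM in WT heat, a log2 fold change of 1.33 (SE 0.13). AT2G31610 rose by 1.16 (SE 0.15) and AT5G35530 by 1.06 (SE 0.13), and in the libraries labelled hd2b hd2c the values were 1.22, 1.19 and 1.10. With library totals all of these values were below 0, from −0.20 to −0.48. The heat and normal libraries of each genotype did not overlap for any of the RPS3 genes. Without hd2b hd2c heat replicate 2 the hd2b hd2c values under TMM factors were lower. They were 1.09 for AT3G53870, 0.92 for AT2G31610 and 0.93 for AT5G35530.

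The RPS18 family differed in size of change among its paralogues. PFL, whose loss gives pointed first leaves, went from 95.7, 90.0 and 99.0 CPM in WT normal to 171, 174 and 229 CPM in WT heat (log2 fold change 1.01, SE 0.14). RPS18C, the most abundant of the family, rose by 0.66 (SE 0.13) and AT1G34030 by 0.29 (SE 0.12, adjusted p 0.0321 in edgeR's quasi-likelihood test after Benjamini-Hochberg adjustment). AT1G34030 rose more in the libraries labelled hd2b hd2c (0.53), but the difference between genotypes did not pass (interaction 0.24, adjusted p 0.717). All RPS18 values turned negative with library totals. Under TMM factors without hd2b hd2c heat replicate 2, AT1G34030 was at 0.41 in hd2b hd2c and 0.28 in WT, with an interaction of 0.14.

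Of the remaining small subunit genes, RPS5A, which lies near the messenger RNA exit, rose by 1.26 (SE 0.19), its paralogue RPS5B by 0.82, EMB3010 (RPS6) by 1.03 and RPS6 itself by 0.49. RPS5A was at 295, 258 and 292 CPM in WT normal and at 593, 642 and 789 CPM in WT heat, with no overlap. The 2 small subunit members that did not pass in WT were RPS15A (0.22) and AT3G10090 of the RPS28 family (0.37). In all, 15 of 17 small subunit genes rose in WT and 14 of 17 in hd2b hd2c, against 31% and 29.9% of all genes. The medians of the 17 were 0.82 and 1.01 under TMM factors and −0.71 and −0.52 under library totals. All 17 in WT and 16 in hd2b hd2c lay above the median of all genes under both scalings, which is not a second test either.

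In the large subunit RP1, the main gene for RPL3, a protein next to the peptidyl transferase centre, had the largest rise. It was at 456, 406 and 453 CPM in WT normal and at 1383, 1431 and 1656 CPM in WT heat. The log2 fold change was 1.76 (SE 0.14, adjusted p 2.2e-10 in edgeR's quasi-likelihood test after Benjamini-Hochberg adjustment), and 0.23 with library totals, which did not pass in WT (adjusted p 0.101). In hd2b hd2c it went from 462, 475 and 397 CPM to 1528, 1709 and 1400 CPM (1.80). EMB2296 followed at 1.45 (SE 0.17), with 371, 405 and 447 CPM in WT normal and 989, 1090 and 1266 CPM in WT heat, and AT3G09630, for the exit tunnel protein RPL4, at 1.41 (SE 0.13). For both, the values with library totals were close to 0 and not called (−0.08 and −0.13).

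The 2 members that fell in WT also fell in the libraries labelled hd2b hd2c, under either scaling. AT1G18540, a gene for RPL6, was at 155, 143 and 128 CPM in WT normal and at 98.4, 87.1 and 93.5 CPM in WT heat (log2 fold change −0.61, SE 0.12, adjusted p 0.000115 in edgeR's quasi-likelihood test after Benjamini-Hochberg adjustment). AT2G37190, for RPL12 at the base of the ribosomal stalk, was at 119, 102 and 117 CPM and then at 67.2, 71.4 and 83.2 CPM (−0.61, SE 0.13). In hd2b hd2c the log2 fold changes were −0.59 for both, and heat and normal libraries did not overlap for either gene. With library totals the values were −2.14 for both in WT, below the median of all genes.

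The other RPL6 genes went the opposite way under TMM factors. AT1G74050 was at 158, 147 and 162 CPM in WT normal and 266, 278 and 336 CPM in WT heat, a log2 fold change of 0.91 (SE 0.15), and AT1G74060, its direct neighbour on chromosome 1, rose by 0.93 (SE 0.15). With library totals all RPL6 genes were lower after heat, and AT1G74050 (−0.62) and AT1G74060 (−0.61) were above the similarly lowered median of all genes. The RPL10 genes SAC52 and SAG24 rose by 0.84 (SE 0.18) and 0.68 (SE 0.11), while RPL10B, at 14.7, 14.96 and 18.4 CPM in WT normal and 11.8, 14.4 and 15.3 CPM in WT heat, did not pass (−0.22). With library totals SAC52 and SAG24 turned to −0.70 and −0.85.

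RPL10a forms the mobile L1 stalk of the large subunit. Its gene PGY1, known from altered leaf polarity, went from 250, 242 and 267 CPM in WT normal to 408, 430 and 488 CPM in WT heat (log2 fold change 0.81, SE 0.13), and AT1G08360 rose by 0.39 (SE 0.11). AT5G22440 did not pass (−0.13), with overlapping libraries, and with library totals the 3 genes were at −0.73, −1.14 and −1.67. Among the RPL9 genes AT4G10450 rose by 0.47 (SE 0.15), while AT1G33120 (0.39) and PGY2 (−0.09) did not pass. AT1G33120 and PGY2 share 99.1% of their aligned coding bases and a run of 565 identical transcript bases, so the split of reads between them is uncertain, since the labels do not say how multiply aligned reads were counted.

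In all, 18 of 32 large subunit genes rose and 2 fell in WT, against 31% and 34.8% of all genes. In hd2b hd2c 16 rose and 4 fell, against 29.9% and 31.5% of all genes. The medians of the 32 were 0.39 and 0.32 under TMM factors and −1.15 and −1.16 under library totals. The 12 large subunit genes that did not pass in WT lay between −0.22 and 0.39. RPL16A, a minor gene for RPL11, which with RPL5 binds the 5S RNA, was at 15.7, 16.3 and 15.1 CPM in WT normal and 13.7, 12.01 and 14.7 CPM in WT heat. Its groups did not overlap in WT, but the difference did not pass (−0.22, adjusted p 0.189 in edgeR's quasi-likelihood test after Benjamini-Hochberg adjustment).

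**Figure D2:**
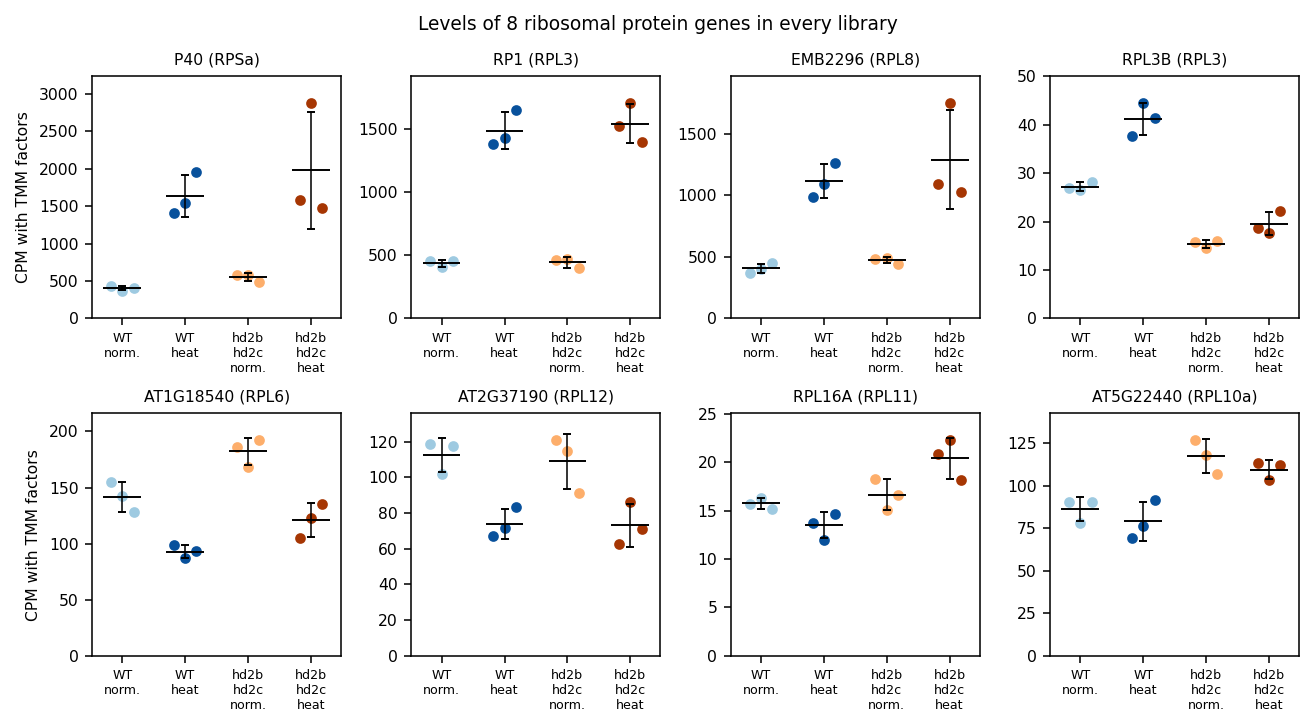
Level of 8 members in each library, in CPM with TMM factors. Points are single libraries, horizontal lines are group means and bars are ± SD (n = 3). P40, RP1 and EMB2296 were higher and AT1G18540 and AT2G37190 lower in all heat libraries of both genotypes, and at each temperature RPL3B had all WT libraries above all those labelled hd2b hd2c.

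In the libraries labelled hd2b hd2c, 30 of the 49 members rose with heat and 4 fell, against 29.9% and 31.5% of all genes, and 38 lay above 0 against 46% of all genes. Heat libraries lay wholly above normal ones in 30 members and wholly below in 3, against 30.5% and 35.8% of all genes. All 30 had also risen in WT, and ATL5, RPL5B (both RPL5) and RPSAb were called in WT alone. None of the 49 passed the test of a difference in heat response between genotypes, in which 0.148% of all genes were called higher and 0.188% lower, or 0.00989% and 0.0395% with library totals. The interaction was above 0 in 24 members and in 51.5% of all genes (median −0.004 and 0.01), but without hd2b hd2c heat replicate 2 it was above 0 in 11 members and in 51.1% of all genes, with a median of −0.17 in the members, and still none was called. By unadjusted p under 0.05 there were 2 members, against 8.89% of all genes, and by DESeq2 there were 0, and the smallest adjusted p was 0.456 (quasi-likelihood test of edgeR, Benjamini-Hochberg adjusted), for RPL16A. The median log2 fold change was 0.66, or 0.52 without hd2b hd2c heat replicate 2, and −0.82 with library totals, under which 44 members were called lower and 2 higher (78.2% and 4.79% of all genes).

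PGY2 and STV1 were called lower in hd2b hd2c in addition to AT1G18540 and AT2G37190. STV1, a gene for RPL24 that is known for a role in reinitiation of translation, was at 181, 194 and 191 CPM in the normal and 135, 163 and 149 CPM in the heat libraries, which did not overlap (log2 fold change −0.35, SE 0.11). PGY2 fell by 0.39 on the log2 scale (SE 0.14), although its libraries overlapped, at 166, 161 and 150 CPM before and 111, 154 and 104 CPM after heat. The highest of the heat values was again hd2b hd2c heat replicate 2, without which PGY2 was at −0.58.

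The ratio of summed large to small subunit counts was lower after heat, and this ratio does not depend on scaling. Abundant genes weigh most in such sums. P40, in the small subunit sum, went from a WT mean of 316 to 1268 CPM per kilobase with heat. The ratio of the members without P40 was not computed. The summed raw counts of the large subunit members were 1.83, 1.85 and 1.75 times those of the small subunit members in WT normal, and 1.49, 1.46 and 1.43 times in WT heat. In hd2b hd2c the ratios were 1.85, 1.84 and 1.88 before and 1.49, 1.32 and 1.48 after heat. Every heat library lay below every normal library, while the genotypes overlapped at both temperatures. In the other cytosolic ribosomal protein genes the ratio also had no overlap, at 1.30 to 1.35 in the normal and 1.10 to 1.15 in the heat libraries, so a lower ratio after heat was not particular to the members. These are ratios of transcript counts, and ribosomal proteins were not measured.

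**Figure D3:**
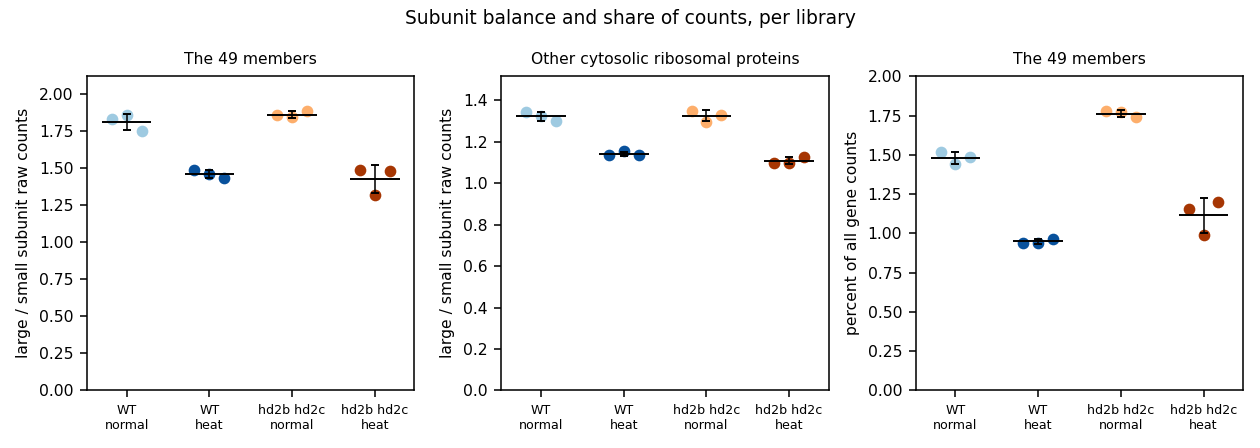
Ratio of summed raw counts of large to small subunit genes in the 49 members (left) and in the other cytosolic ribosomal protein genes (middle), and the share of all gene counts taken by the 49 members (right), per library. Lines are group means and bars ± SD (n = 3). The ratio in the members was 1.75 to 1.88 in the normal and 1.32 to 1.49 in the heat libraries.

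Shares within a paralogue family compare genes in the same library and so do not depend on scaling either. Of the 49 member shares, taken as a gene's percent of all counts of its family, 33 differed with heat, 15 higher and 18 lower, in 18 of 24 families (exact two-sided permutation test within genotypes, Benjamini-Hochberg adjustment over 220 shares of 79 cytosolic ribosomal protein families). In those families 64.5% of all shares were called, so the members' count is near this background. Shares of a family add up to the whole, so a gain for a gene is a loss for its paralogues. Calls within a family are therefore not independent, and higher and lower calls tend to balance. The smallest p that the 400 relabellings allow is 0.005, which gave an adjusted p of 0.00991. The paralogue most abundant in WT normal gained share in WT in 13 of the 24 families and lost it in the others.

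RPL6 had the largest shift among the members. AT1G18540 made up 35.8%, 34.8% and 31.2% of RPL6 counts in WT normal and 17.3%, 14.8% and 13.6% in WT heat, and means of 40.1% and 19.4% in hd2b hd2c. AT1G74050 was at a mean of 37.3% before and 47.6% after heat in WT, and AT1G74060 at 28.7% and 37.1%. By counts AT1G18540 was thus second of the RPL6 genes in WT and first in hd2b hd2c before heat, and last in both after it. Per kilobase of exon it was not first in hd2b hd2c normal, at 118 ± 7.88 CPM against 122 ± 11.2 CPM for AT1G74050 (SD). The genotype difference in its share was not called (adjusted p 0.114, exact permutation test).

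In other families the leading gene changed or drew ahead. RPL27AB made up 40.7%, 41.4% and 41.1% of RPL27a counts in WT normal and 58.4%, 57.5% and 57.8% in WT heat, with AT1G70600 taking most of the rest. For RPS6 the share of EMB3010 went from a mean of 44.6% to 53.9% in WT and from 40.2% to 51.2% in hd2b hd2c. The hd2b hd2c heat libraries were at 50.8%, 55.7% and 47.1%, so EMB3010 did not lead in replicate 3. The highest of these values was hd2b hd2c heat replicate 2, which stood apart. RPL18 was at 50.4% and AT5G27850 at 49.6% of their family before heat in WT, and at 63.6% and 36.4% after it. These shares did not overlap between normal and heat libraries in either genotype.

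Of the 6 members with the lowest shares in WT normal, 4 had a lower share after heat. RPL3B went from 5.86% to 2.70% of RPL3 counts in WT and from 3.38% to 1.27% in hd2b hd2c, RPL16A from 5.66% to 1.65% and from 5.11% to 2.37% of RPL11 counts, RPSAb from 2.42% to 0.92% and RPL10B from 2.24% to 1.12% in WT. AT3G10090 went the other way, from 3.05% to 4.35% of RPS28 counts in WT (adjusted p 0.0465, exact permutation test), and AT2G45710, from 6.52% to 7.79% of RPS27 counts, did not pass (adjusted p 0.102). RPL16A shares up to 115 identical transcript bases with its paralogue AT3G58700, and RPL3B at most 26 with RP1. Other families had shares close together, among them RPL23a, where RPL23AA was at 78.4% before and 78.9% after heat in WT, and RPL5, where ATL5 was at 60.8% and 61.8%; neither difference passed.

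**Figure D4:**
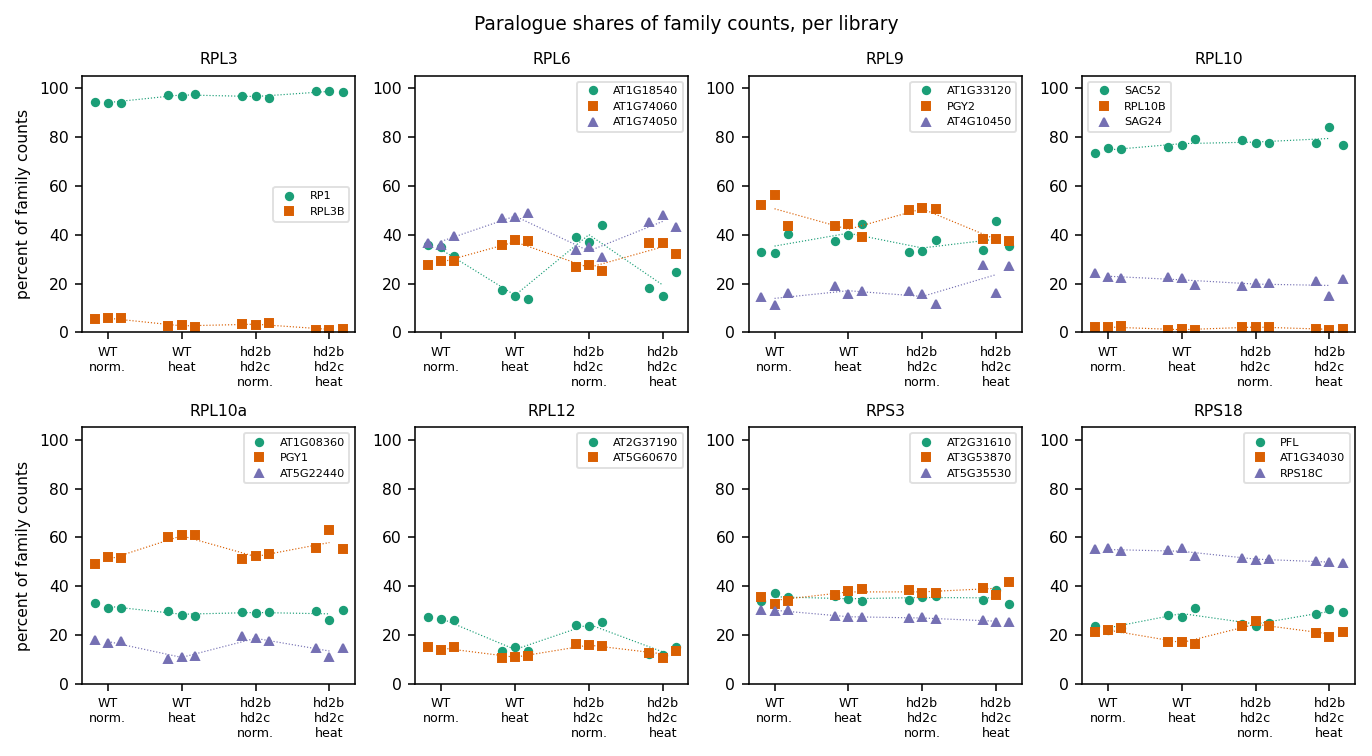
Share of the summed raw counts of a paralogue family taken by each member in 8 families, per library. Points are single libraries and dotted lines join group means. AT1G18540 took 31.2% to 35.8% of RPL6 counts in WT normal and 13.6% to 17.3% in WT heat. The RPS3 shares lay between 25% and 42% in all libraries, and that of AT5G35530 was called lower with heat (−1.99 percentage points).

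Between genotypes most members were slightly higher in the libraries labelled hd2b hd2c, but few passed the test. At normal temperature 1 member was called higher and 1 lower, against 0.979% and 1.67% of all genes, with 17 members (and 13.8% of all genes) at an unadjusted p under 0.05. The median log2 fold change was 0.22, and 43 of 49 members lay above 0 against 50% of all genes. For 20 members all libraries labelled hd2b hd2c lay above all WT libraries, which held for 11.7% of all genes, and for 2 members they lay below (13.7%). With library totals the median was 0.26 and 45 members lay above 0, and no member was called, against 0.366% of all genes higher and 0.138% lower. Without hd2b hd2c heat replicate 2, which enters the spread of the fit although it is not in this comparison, 11 members were called higher and 1 lower, including both of the above, against 1.98% and 3.17% of all genes in that fit, and over fits that each left out 1 library 0 to 11 members were called higher. Summed over the members, 1.52%, 1.44% and 1.49% of all gene counts came from them in WT normal, and the libraries labelled hd2b hd2c had 1.78%, 1.77% and 1.74%, with no overlap.

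After heat 3 members were called higher and 1 lower, against 1.59% and 1.18% of all genes, with a median of 0.13 and 41 members above 0 (50.6% of all genes). In 10 members the hd2b hd2c libraries lay wholly above WT and in 1 wholly below, against 8.97% and 8.66% of all genes. With library totals 48 members lay above 0 and none was called, against 0.193% of all genes higher and 0.0692% lower, and the median of all genes was itself 0.13. After heat the members took 0.941%, 0.942% and 0.964% of counts in WT, and 1.16%, 0.989% and 1.20% in hd2b hd2c. Without hd2b hd2c heat replicate 2 the median was 0.03 under TMM factors, 26 members lay above 0 (51.2% of all genes), and 5 members were called higher and 1 lower against 3.55% and 3.41% of all genes. Fits that each left out 1 library called 0 to 5 members higher.

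RPL3B was the member called lower by genotype, before heat as well as after it. It was at 27.0, 26.5 and 28.2 CPM in WT normal and 15.8, 14.5 and 15.9 CPM in hd2b hd2c normal (log2 fold change −0.82, SE 0.12, adjusted p 0.000446 in edgeR's quasi-likelihood test after Benjamini-Hochberg adjustment). After heat it was at 37.7, 44.5 and 41.4 CPM in WT and 18.7, 17.7 and 22.3 CPM in hd2b hd2c (−1.05, SE 0.13, adjusted p 6.86e-05). The groups did not overlap at either temperature. With library totals the values were −0.77 and −0.92 and did not pass (adjusted p 0.191 and 0.106). RP1, the main gene of the same family, was at 0.02 and 0.05 and was not called.

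AT5G22440, a gene for RPL10a, was higher at both temperatures. It was at 90.8, 78.2 and 90.3 CPM in WT normal and 127, 118 and 107 CPM in hd2b hd2c normal (log2 fold change 0.44, SE 0.12, adjusted p 0.0435 in edgeR's quasi-likelihood test after Benjamini-Hochberg adjustment), and after heat at 69.4, 76.5 and 91.6 CPM against 113, 103 and 112 CPM (0.47, SE 0.12, adjusted p 0.0356). The groups did not overlap, but with library totals neither difference passed (adjusted p 0.44 and 0.226). AT5G22440 lies on chromosome 5, with 24 protein-coding genes between it and HD2B. The part of that position in the result was not tested.

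RPL16A and AT4G10450 were called higher after heat alone. RPL16A was at 13.7, 12.01 and 14.7 CPM in WT heat and 20.9, 22.3 and 18.1 CPM in hd2b hd2c heat (log2 fold change 0.58, SE 0.15), against 0.08 at normal temperature. AT4G10450 (RPL9) was at 52.5, 45.7 and 52.6 CPM against 79.9, 65.5 and 74.7 CPM (0.55, SE 0.15), and at 0.36 at normal temperature. A difference between the temperatures did not pass for either gene (interaction 0.50 and 0.19, adjusted p 0.456 and 0.85 in edgeR's quasi-likelihood test after Benjamini-Hochberg adjustment). With library totals they were at 0.69 and 0.67 and were not called.

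**Figure D5:**
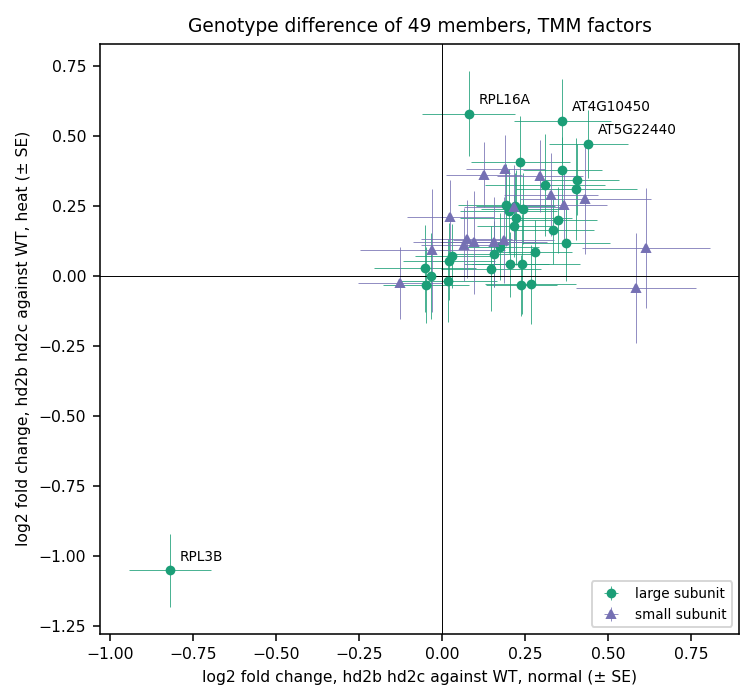
Log2 fold change of hd2b hd2c against WT for each of the 49 members at normal temperature (horizontal) and after heat (vertical), with TMM factors. Bars are ± SE, circles are large and triangles small subunit genes. Most members lie between 0 and 0.61 on both axes, and RPL3B lies apart at −0.82 and −1.05.

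No paralogue share was called between genotypes. The smallest adjusted p was 0.0611 (exact two-sided permutation test within temperatures, Benjamini-Hochberg adjustment), at the smallest p the relabellings allow, and 15 member shares had an unadjusted p under 0.05 against 27.7% of all 220 shares. RPL3B was among these, with a difference of −1.96 percentage points for hd2b hd2c against WT, and so was RPS18C with −4.19 points. Without hd2b hd2c heat replicate 2, 13 of 49 member shares were called, against 15.5% of all 220 shares.

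Genes that work beside the ribosomal proteins were counted from lists chosen with earlier results of these data known. With heat in WT, 31% of all genes were called higher and 34.8% lower under TMM factors. Of the other cytosolic ribosomal protein genes, 161 of 177 were tested, and 89 rose and 16 fell with heat in WT (median 0.48 under TMM factors, −1.06 under library totals). Among 31 nuclear genes for plastid ribosomal proteins 30 rose and 0 fell, with a median of 1.39 that turned to −0.14 with library totals. Of 36 cytosolic translation factor genes 29 rose and 2 fell (median 0.96, turning to −0.57 on library totals), with EIF4A-2, an RNA helicase of initiation, at 1.57 and close to 0 with library totals (0.04). Of 14 genes for TOR signalling, the ribosome scaffold RACK1 and regulators of ribosomal protein genes 10 rose and 1 fell (median 0.63, turning to −0.90 on library totals), with RACK1B_AT at 1.57. The members' shares of 33 and 2 of 49 lie among these, and no difference between lists was tested.

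By genotype the lists differed little from 0. The other cytosolic ribosomal protein genes had a median of 0.18 at normal temperature, with 149 of 161 above 0 and 3 called higher, close to the members' 0.22. The translation factor list had 0.03 with 20 of 36 above 0, and the plastid list −0.01 with 15 of 31 above 0. After heat all 31 plastid genes lay below 0 (median −0.19, 1 called), whereas 41 of 49 members, or 26 without hd2b hd2c heat replicate 2, and 139 of 161 other cytosolic genes lay above 0. For the plastid and other cytosolic genes, counts without that library are not given, so whether this contrast holds without it is not known. The counts of the lists were not tested against each other.

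The summed levels of cell division and seedling organ markers were higher in the heat libraries under TMM factors, while none of these markers was called by genotype. The summed level of 9 cell division markers was 79.5 to 95.1 CPM in WT normal and 131 to 141 CPM in WT heat, and 93.4 to 97.0 and 134 to 149 CPM in hd2b hd2c. Of these genes 3 rose and 0 fell in WT, against 31% and 34.8% of all genes. The replication clamp gene PCNA1 led (2.14), at 8.74 to 9.75 CPM in WT normal and 39.2 to 42.0 CPM in WT heat. The mitotic cyclin gene CYCB1;1 (0.12) did not pass. CYCA1;1 (−0.34), MCM2 (−0.25) and KNOLLE (−0.11) lay below 0 and did not pass either. With library totals 6 were called lower, against 79.1% of all genes. By genotype CYCB1;1 was at 0.71 at normal temperature and did not pass (adjusted p 0.061 in edgeR's quasi-likelihood test after Benjamini-Hochberg adjustment). The 6 organ markers summed to 6939 to 7341 CPM in WT normal and 37952 to 51919 CPM in WT heat, nearly all of it from CAB1, a gene for a light-harvesting protein, and RBCS1A, which encodes a Rubisco subunit (1.94). They summed to 5915 to 7796 and 23677 to 62684 CPM in hd2b hd2c. The root hair markers PRP3 (−3.09) and EXPA7 (−1.91) fell in WT, the shoot meristem gene STM (0.74) and the epidermal gene ATML1 (0.83) rose under TMM factors and were negative with library totals. The part of tissue composition in the results for ribosomal protein genes was not tested.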

How the data were processed

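The submitters' processing notes name HISAT2 2.1.0, featureCounts 2.0.3 and the build TAIR10. Strandedness and the counting of multiply aligned reads are not stated there. The deposited values are raw counts per gene, whole numbers with no normalisation by the authors. Counts were fitted in edgeR 4.0.16 (R 4.3.3; limma 3.58.1) with robust quasi-likelihood and 4 group means over all 12 libraries, after filterByExpr (minimum count 10, minimum total 15; 20232 genes). CPM values use TMM factors. P-values were adjusted by Benjamini-Hochberg over all genes within each of 5 comparisons and called under 0.05, and "rose" and "fell" are kept for called genes. SE was taken as log2 fold change over the root of its F statistic, as a size. Exact permutation tests of paralogue shares used families with at least 100 counts in every library. Promoters, exon lengths and identity came from TAIR10.1 with Biopython 1.88 in Python 3.11.15. The fitting and share tests were tested on simulated data. DESeq2 1.42.0 and other scalings, filters and left-out libraries were alternatives.

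The members and all gene lists were chosen with earlier results of these data known. Named members are the 4 largest positive and the 4 largest negative called changes of each comparison and all members of families with 3 members, 27 genes in all. Other members, and genes outside the list, were named after their values were seen, as examples of a range, a level or a share.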

Additional observations from a re-analysis of the deposited data

How the results depend on the processing

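Of 2538 values of named members under the alternatives, 2402 kept their direction and side of the threshold, 69 lost a call, 30 gained one and 37 reversed. All 37 reversals came with library totals only, where the scaling itself moves the median of all genes. In WT the reversed heat values were RPL3B −0.93, AT3G09630 −0.13, AT1G74060 −0.61, AT1G74050 −0.62, EMB2296 −0.083, AT1G33120 −1.15, AT4G10450 −1.05, SAC52 −0.70, SAG24 −0.85, AT1G08360 −1.14, PGY1 −0.73, AT2G31610 −0.37, AT3G53870 −0.20, AT5G35530 −0.48, RPS5A −0.28, PFL −0.53, AT1G34030 −1.24, RPS18C −0.88. In hd2b hd2c they were RPL3B −1.09, AT3G09630 −0.25, AT1G74060 −0.65, AT1G74050 −0.60, EMB2296 −0.13, AT1G33120 −1.38, AT4G10450 −0.79, SAC52 −0.72, SAG24 −0.77, AT1G08360 −1.13, PGY1 −0.98, RPL16A −1.19, AT2G31610 −0.38, AT3G53870 −0.30, AT5G35530 −0.43, RPS5A −0.27, PFL −0.46, AT1G34030 −0.98, RPS18C −0.77. With library totals only, members called higher and lower with heat were 1 and 43 in WT and 2 and 44 in hd2b hd2c, and by genotype 0 and 0 at both temperatures. Upper-quartile factors gave 10 members lower in WT and 8 in hd2b hd2c. At normal temperature members called higher by genotype were 0 with RLE factors, 3 without a filter on low counts and 11 with only the groups compared, and after heat they were 5 with DESeq2 and 0 with only the groups compared. The share of all genes called is given only for library totals and for the fit without hd2b hd2c heat replicate 2. For the other settings and left-out libraries, a count therefore cannot be read as particular to the members. Genotype calls of paralogue shares were 7 with only members in the denominator. Leaving out 1 library gave 29 to 34 members higher and 2 lower with heat in WT, 29 to 31 higher and 2 to 4 lower in hd2b hd2c, 0 to 11 higher and 1 lower by genotype at normal temperature, 0 to 5 higher and 1 lower after heat, 31 to 36 shares called with heat and 0 to 13 by genotype. The 1 member higher by genotype at normal temperature was not called without any 1 of the WT normal libraries, WT heat replicate 2, hd2b hd2c normal replicates 1 or 2, or hd2b hd2c heat replicate 1, and the count was 2 without replicate 3 of hd2b hd2c normal or heat. The 3 after heat became 0 without WT normal replicates 1 or 3, WT heat replicates 1 or 2, hd2b hd2c normal replicate 2 or hd2b hd2c heat replicates 1 or 3, 1 without WT normal replicate 2 or WT heat replicate 3, and 2 without hd2b hd2c normal replicate 1. The counts of 11 and 5 higher by genotype and of 13 shares came without hd2b hd2c heat replicate 2, and the 2 lower with heat came without hd2b hd2c heat replicate 1. The higher genotype calls therefore rest on the libraries and scaling used, while RPL3B was called lower in each left-out fit. The labels give no pairing by replicate number, and over 18 same-numbered pairs the correlations of deviations ran from −0.13 to 0.15, 1 of them over 0.1. A replicate block gave 33 and 2 members higher and lower with heat in WT, 30 and 4 in hd2b hd2c, and 0 higher and 1 lower by genotype at either temperature, and 3 libraries correlated best with their own number. SEs of the members' heat response in WT ran from 0.107 to 0.219, which limits the differences that could be called. The causes were not tested.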
